A study of Mus musculus with 12 samples.

Results

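The granule protein and alarmin genes are 10 genes whose products fill the granules of neutrophils and their precursors or form the S100 alarmin pair. They were taken by gene symbol from the 54532 genes of the count tables: S100a8 and S100a9, Ngp, Camp and Ltf, and Mpo, Elane, Prtn3, Ctsg and Ms4a3. All 10 were found, had counts in each of the 12 libraries and entered the test with 14324 genes in all. The cells were mouse bone marrow monocytes, sorted as CD11b-positive with high Ly6C, which is the surface phenotype of classical inflammatory monocytes. Control mice received no succinate and the other mice 300 mM succinate for 7 days, and the sorted cells were then cultured unstimulated or for 4 h with lipopolysaccharide (LPS), the cell wall component of Gram-negative bacteria that Toll-like receptor 4 senses. The 4 groups were thus unstimulated cells of control mice, unstimulated cells of succinate mice, and LPS-treated cells of each, with 3 libraries per group. The labels used here give neither the strain, sex and age of the mice, nor the LPS concentration, nor whether the replicates were separate mice, so that the p-values speak only of the spread among these libraries, which may be technical.

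S100A8 and S100A9 form calprotectin, a calcium- and zinc-binding complex of the cytosol that is released on activation and acts as a danger signal through Toll-like receptor 4. Primary (azurophilic) granules are made first, at the promyelocyte stage, and carry myeloperoxidase and the serine proteases. Secondary (specific) granules follow at the myelocyte stage and carry lactoferrin, the cathelicidin and neutrophilic granule protein. In bone marrow, granulocyte-monocyte progenitors and early monocytes also transcribe primary granule genes, and classical monocytes transcribe S100a8 and S100a9.

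Total counts per library ranged from 15975882 to 18306747 (median 16980357), and the 10 genes together took 0.953% to 2.17% of them. Without LPS their share was 1.26 ± 0.298% in control cells and 1.15 ± 0.167% in succinate cells, and with LPS it was 1.78 ± 0.295% and 2.04 ± 0.116% (mean ± SD, n = 3). Levels below are CPM, counts scaled to a common library size by trimmed means (TMM), and differences are log2 fold changes with their standard error (SE). A gene was called when its Benjamini-Hochberg adjusted p in edgeR's quasi-likelihood test was below 0.05 over all genes tested. The libraries also fell into 2 classes by 5 other genes (S100a4, Rpl24 and 3 pseudogenes, mean log2 CPM of 3.19 to 4.03 in 5 libraries and 0.82 to 1.46 in 7). Replicates 2 and 3 of each unstimulated group were high, as was the control library 3 with LPS, so that class and LPS ran partly together. Of 10 markers of Ly6C-high monocytes, the sorted population, LPS raised 3 and lowered 5 in each kind of mice. Ly6g, which defines mature neutrophils, was named after its values were seen. In control cells it was at 3.87 ± 1.57 CPM without and 7.73 ± 0.632 CPM with LPS. In cells of succinate mice it was at 4.25 ± 1.77 and 6.46 ± 1.29 CPM. Ly6g is 1 of 16 listed neutrophil maturation markers, 14 of them tested. LPS raised 6 and lowered 3 of these in control mice, and raised 5 and lowered 3 in succinate mice. Cxcr2, another of them, was at 26.1 ± 3.97 CPM without and 10.3 ± 1.88 CPM with LPS in control cells. No gene of the T and NK cell list passed the filter on low counts. In bulk RNA, fewer cells of a type and less RNA per cell cannot be told apart.

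Levels of different genes were compared per kilobase of exonic length, which was taken over all annotated exons of a gene. By this measure 4 of the 10 genes were among the most abundant transcripts of the sorted cells in bulk. Which exons and which cells gave the reads was not tested. The mean over the 12 libraries was 6822 CPM per kb for S100a9, rank 2 of the 14319 tested genes with a length, 3582 for S100a8 (rank 3), 3232 for Ngp (rank 4) and 1717 for Camp (rank 11). Elane followed with 1028 CPM per kb (rank 19), then Prtn3 with 469 (rank 63), Mpo with 368 (rank 90), Ltf with 261 (rank 142) and Ctsg with 185 (rank 214). The Prtn3 rank is less certain, because its length includes annotated exons upstream of the RefSeq start and its counts may hold reads of an overlapping gene. Ms4a3 was the lowest of the 10 at 69.3 CPM per kb (rank 659). The genes differed in how far they spread: the highest library exceeded the lowest by 4.74 times for S100a8, 4.41 times for Ctsg and 1.64 times for Ltf.

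**Figure D1:**
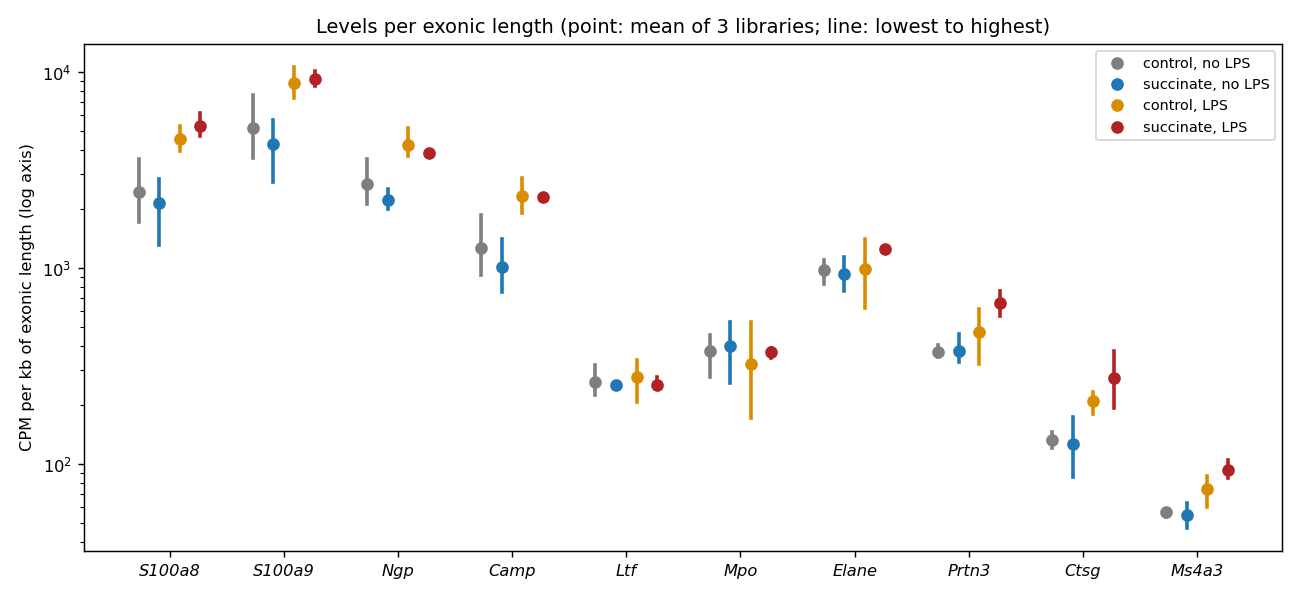
Levels of the 10 genes in CPM per kilobase of exonic length on a log axis, with a point for the mean of 3 libraries and a line from the lowest to the highest library in each of the 4 groups. S100a9 lay highest (mean over all libraries 6822 CPM per kb) and Ms4a3 lowest (69.3), and the LPS means of S100a8, S100a9, Ngp and Camp sat above the unstimulated means in both kinds of mice.

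The S100 alarmins rose with LPS in the cells of both kinds of mice. S100a8 lies on chromosome 3 at 90668978 to 90670035 (plus strand, GRCm38) and S100a9 22596 bases away at 90692632 to 90695721 on the minus strand. The stretches just before their first annotated exons are shown, with every match of a C/EBP motif (TTNNGNAA, either strand) or a PU.1 motif (GAGGAA, either strand) in capitals, since both genes moved together. The S100a8 window is chr3:90668828-90668977 on the plus strand and the S100a9 window chr3:90695722-90695871 on the minus strand, both from RefSeq on GRCm38.p6 and written 5′ to 3′.
S100a8: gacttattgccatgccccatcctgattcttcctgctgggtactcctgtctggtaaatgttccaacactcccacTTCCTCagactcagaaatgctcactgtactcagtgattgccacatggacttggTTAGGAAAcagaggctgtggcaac
S100a9: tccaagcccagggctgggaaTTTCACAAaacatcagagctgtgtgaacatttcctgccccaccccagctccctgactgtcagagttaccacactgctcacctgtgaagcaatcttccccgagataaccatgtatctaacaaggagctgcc
Both windows hold 1 C/EBP match and that of S100a8 also 1 PU.1 match. A match describes the letters only and says nothing of binding.

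S100a8 stood at 2473, 1190 and 1413 CPM in replicates 1, 2 and 3 of unstimulated control cells and at 2990, 3646 and 2740 CPM in control cells with LPS. In cells of succinate mice it stood at 1957, 902 and 1573 CPM without LPS and at 3271, 3403 and 4274 CPM with LPS. All 6 LPS libraries were thus above all 6 unstimulated ones, and replicate 1 was the highest of each unstimulated group. The LPS effect on S100a8 was a log2 fold change of 0.89 ± 0.27 in control mice (1.85-fold, 95% interval 0.30 to 1.47, adjusted p = 0.024) and 1.30 ± 0.27 in succinate mice (2.47-fold, 0.72 to 1.89, adjusted p = 0.00222).

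S100a9 stood at 3960, 1884 and 2207 CPM in unstimulated control cells and at 4395, 5506 and 3820 CPM in control cells with LPS. The values of succinate mice were 2946, 1434 and 2272 CPM without LPS and 4420, 4625 and 5266 CPM with LPS. The control groups overlapped, because replicate 1 without LPS was above replicate 3 with LPS, and the succinate groups did not. S100a9 rose by 0.77 ± 0.27 on the log2 scale in control mice (95% interval 0.20 to 1.34, adjusted p = 0.0433) and by 1.11 ± 0.27 in succinate mice (0.53 to 1.68, adjusted p = 0.00606). The call held in 15 of 23 alternative settings in control mice and in 22 of 22 in succinate mice. When each library was left out in turn, the call in control mice held in 6 of 12 fits. The ratio of S100a9 CPM to S100a8 CPM within a library varied little: it was 1.58 ± 0.0197 and 1.46 ± 0.059 in control cells without and with LPS, and 1.51 ± 0.0729 and 1.31 ± 0.0713 in cells of succinate mice. The 3 libraries of succinate mice with LPS had the lowest ratios, 1.23 to 1.36, and the lowest of the other libraries was at 1.39. This difference was not tested. In order of mean level, both genes ran from unstimulated succinate and unstimulated control, whose ranges overlapped, to control with LPS and succinate with LPS, whose ranges overlapped as well.

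**Figure D2:**
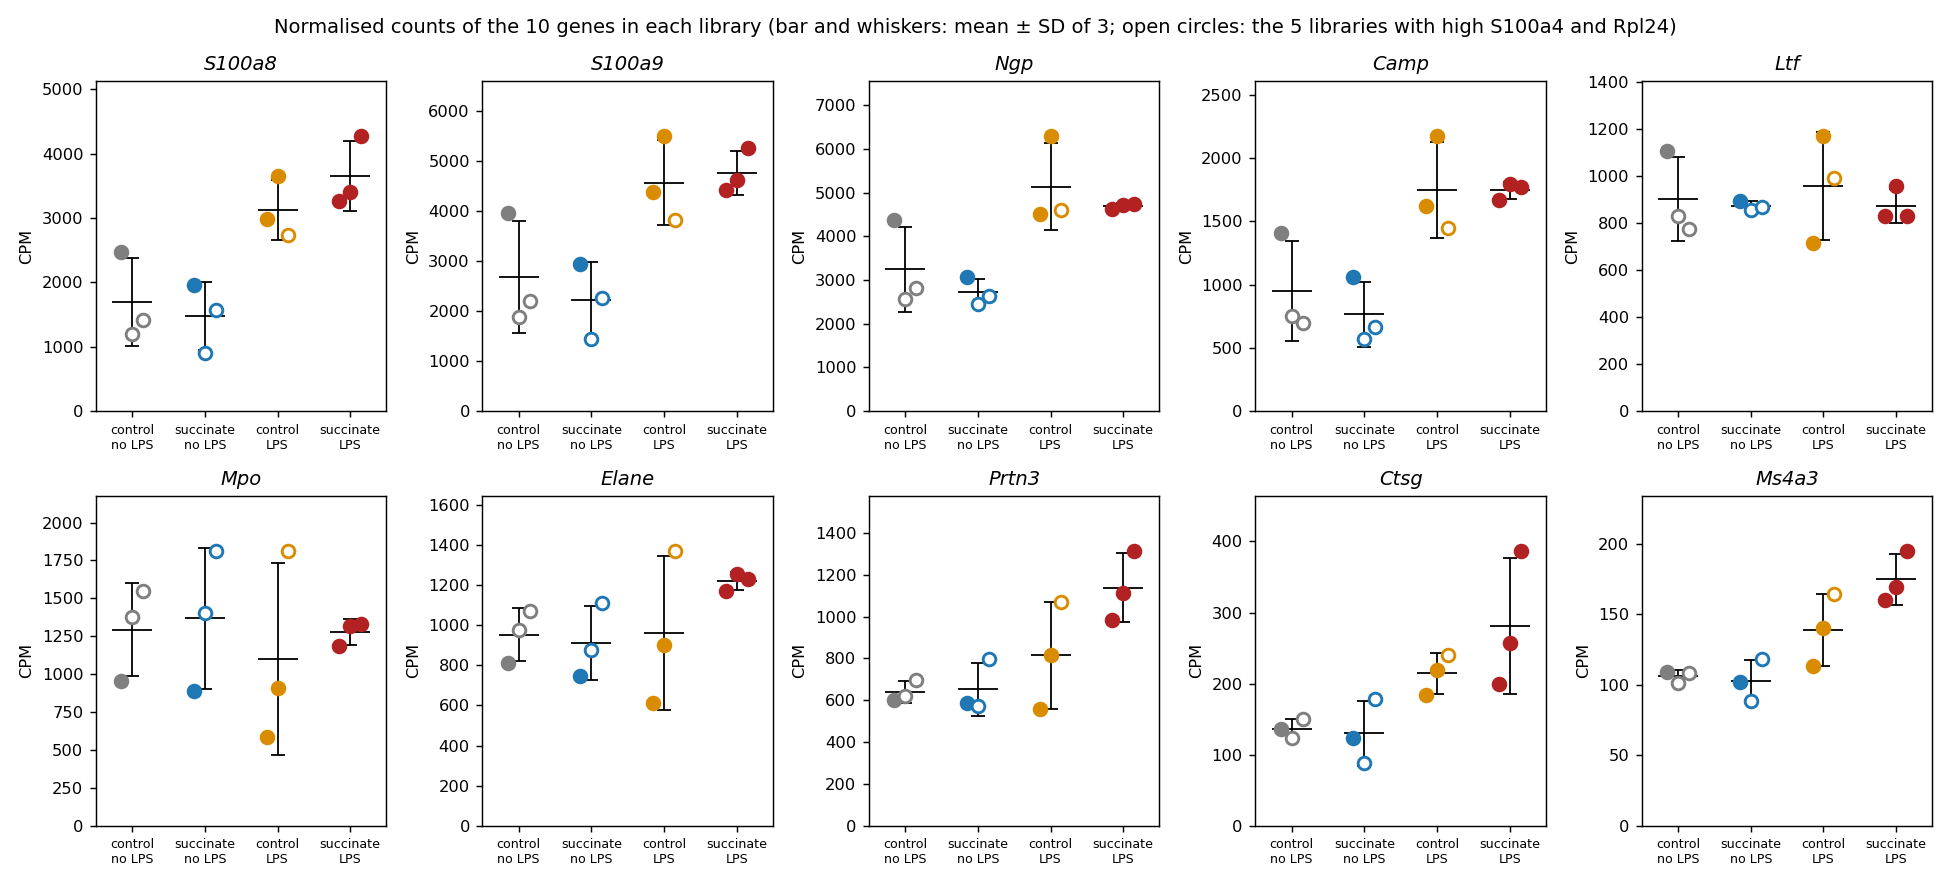
CPM of each of the 10 genes in the 12 libraries (points), with the group mean (horizontal bar) and SD (whiskers) of 3 libraries, and open circles for the 5 libraries with high S100a4 and Rpl24. For S100a8 the 6 LPS libraries (2740 to 4274 CPM) lie above the 6 unstimulated ones (902 to 2473 CPM), while for Ltf and Mpo the groups overlap.

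Of the secondary granule genes, Ngp and Camp rose with LPS in both kinds of mice and Ltf did not pass the test in either. All 3 lie on chromosome 9: Camp, which encodes the cathelicidin precursor of the antimicrobial peptide CRAMP, at 109847379 to 109849617 (minus strand), Ngp, which encodes a cystatin-like neutrophilic granule protein, at 110419747 to 110423012 (plus strand), and Ltf, which encodes the iron-binding protein lactoferrin, at 111019271 to 111042767 (plus strand). Between Camp and Ltf lie 1169653 bases. Their promoter windows are set side by side because Ngp and Camp were called with LPS and Ltf was not: chr9:110419597-110419746 (plus strand), chr9:109849618-109849706 (minus strand, shorter because an annotated exon begins further upstream) and chr9:111019121-111019270 (plus strand), with the same motifs in capitals.
Ngp: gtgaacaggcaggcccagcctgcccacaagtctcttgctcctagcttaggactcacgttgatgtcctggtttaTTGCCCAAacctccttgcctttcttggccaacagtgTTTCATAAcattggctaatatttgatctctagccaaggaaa
Camp: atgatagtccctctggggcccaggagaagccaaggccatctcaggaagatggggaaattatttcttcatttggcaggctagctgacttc
Ltf: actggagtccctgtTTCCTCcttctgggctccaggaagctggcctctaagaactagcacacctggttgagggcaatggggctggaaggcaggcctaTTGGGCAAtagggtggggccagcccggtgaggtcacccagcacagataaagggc
The Ngp window holds 2 C/EBP matches, the Ltf window 1 C/EBP and 1 PU.1 match, and the Camp window no match to either.

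Ngp stood at 4366, 2566 and 2814 CPM in unstimulated control cells and at 4517, 6298 and 4607 CPM in control cells with LPS. Succinate cells stood at 3064, 2442 and 2644 CPM without LPS and at 4619, 4712 and 4752 CPM with LPS. No unstimulated library reached an LPS library, although replicate 1 of unstimulated control cells came close. The LPS effect on Ngp was 0.66 ± 0.19 in control mice (95% interval 0.27 to 1.06, adjusted p = 0.0138) and 0.79 ± 0.19 in succinate mice (0.39 to 1.19, adjusted p = 0.00463).

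Camp stood at 1405, 754 and 693 CPM in unstimulated control cells and at 1624, 2174 and 1446 CPM in control cells with LPS. In the succinate groups it was at 1058, 567 and 667 CPM without LPS and at 1671, 1793 and 1768 CPM with LPS. As with Ngp, the groups with and without LPS did not overlap in either kind of mice. Camp rose by 0.88 ± 0.26 on the log2 scale in control mice (95% interval 0.32 to 1.43, adjusted p = 0.0194) and by 1.19 ± 0.26 in succinate mice (0.63 to 1.75, adjusted p = 0.00298).

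Ltf stood at 1105, 828 and 773 CPM in unstimulated control cells and at 714, 1169 and 992 CPM in control cells with LPS. Cells of succinate mice stood at 892, 854 and 869 CPM without LPS and at 827, 957 and 831 CPM with LPS. The 4 groups overlapped throughout, and no 2 neighbours in the order of group means (872, 872, 902 and 958 CPM) differed beyond their spread. The LPS effect on Ltf was 0.09 ± 0.17 in control mice (95% interval -0.27 to 0.44, adjusted p = 0.747) and 0.00 ± 0.17 in succinate mice (-0.36 to 0.36, adjusted p = 0.999). The ratio of Camp CPM to Ltf CPM within a library was 1.03 ± 0.213 and 1.86 ± 0.408 in control cells without and with LPS, and 0.872 ± 0.277 and 2.01 ± 0.127 in cells of succinate mice. These ratios did not overlap between unstimulated and LPS libraries (0.664 to 1.27 against 1.46 to 2.27). Whether the LPS effect on Ltf differs from those on Camp and Ngp was not tested.

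Of the primary granule genes, Ctsg and Prtn3 rose with LPS in cells of succinate mice, as did Ms4a3, and Mpo passed the test in neither kind of mice. Elane (chromosome 10, 79886247 to 79888215) and Prtn3 (chromosome 10, 79874476 to 79883174), the neighbouring genes of neutrophil elastase and proteinase 3, both lie on the plus strand with 3072 bases between them. Their windows, chr10:79886097-79886246 and chr10:79879464-79879613, are printed because these neighbours share a PU.1 match (capitals) in the same orientation. Whether their LPS effects differ from each other was not tested. The Prtn3 window lies before the RefSeq start but inside the gene as GENCODE extends it.
Elane: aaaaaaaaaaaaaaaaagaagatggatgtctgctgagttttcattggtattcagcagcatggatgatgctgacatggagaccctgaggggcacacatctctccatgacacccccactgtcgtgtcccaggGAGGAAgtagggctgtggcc
Prtn3: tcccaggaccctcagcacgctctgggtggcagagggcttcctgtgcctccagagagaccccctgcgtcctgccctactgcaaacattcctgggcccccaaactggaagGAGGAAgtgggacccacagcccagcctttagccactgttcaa
Prtn3 overlaps Plppr3 on the other strand, and 6.45% of its 50-base stretches also occur in that gene. No source used here gives how the counting treated strand, and Prtn3 counts may hold reads of Plppr3.

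Elane stood at 811, 978 and 1071 CPM in unstimulated control cells and at 610, 904 and 1372 CPM in control cells with LPS. In cells of succinate mice it stood at 745, 879 and 1109 CPM without LPS and at 1172, 1257 and 1233 CPM with LPS. The control LPS libraries spanned the range of all other groups, whereas the succinate LPS libraries were tight and above all libraries of unstimulated succinate cells. The LPS effect on Elane was 0.01 ± 0.22 in control mice (adjusted p = 0.975) and 0.42 ± 0.22 in succinate mice (95% interval -0.06 to 0.90, adjusted p = 0.179), so that neither passed the test. In succinate mice Elane was called in 4 of 22 alternative settings, and in 0 of the 12 that left out 1 library. It was at 0.79 with library class as a covariate (adjusted p = 0.00384 by edgeR). Within the low class, where only replicate 1 of unstimulated succinate cells remained, it was at 0.74.

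Prtn3 stood at 602, 619 and 699 CPM in unstimulated control cells and at 558, 817 and 1069 CPM in control cells with LPS. The values of succinate mice were 586, 574 and 798 CPM without LPS and 986, 1115 and 1315 CPM with LPS. The control groups overlapped and the succinate groups did not. Prtn3 rose by 0.80 ± 0.20 on the log2 scale in succinate mice (95% interval 0.38 to 1.23, adjusted p = 0.00667), and its value in control mice was 0.35 ± 0.20 (-0.08 to 0.77, adjusted p = 0.216). The ratio of Prtn3 CPM to Elane CPM within a library was 0.676 ± 0.0585 and 0.866 ± 0.0752 in control cells without and with LPS, and 0.72 ± 0.0671 and 0.931 ± 0.119 in cells of succinate mice.

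Ctsg encodes cathepsin G and lies on chromosome 14 at 56099881 to 56102574 (minus strand) in the granzyme and mast cell protease cluster. It stood at 136, 124 and 150 CPM in unstimulated control cells and at 184, 219 and 240 CPM in control cells with LPS. Succinate cells stood at 124, 87.9 and 178 CPM without LPS and at 199, 257 and 387 CPM with LPS. All LPS libraries were above all unstimulated ones, by the smallest margin between replicate 3 of unstimulated succinate cells and replicate 1 of control cells with LPS. Ctsg rose by 1.12 ± 0.24 on the log2 scale in succinate mice (95% interval 0.60 to 1.63, adjusted p = 0.00263). Its LPS effect in control mice was 0.65 ± 0.24 (0.14 to 1.17) and narrowly missed the threshold (adjusted p = 0.0541), which 11 of 23 alternative settings passed.

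Ms4a3 encodes a membrane protein of granulocyte-monocyte progenitors and lies on chromosome 19 at 11629496 to 11640851 (minus strand). It stood at 109, 101 and 108 CPM in unstimulated control cells and at 113, 140 and 164 CPM in control cells with LPS. In the succinate groups it was at 102, 88.6 and 118 CPM without LPS and at 160, 169 and 195 CPM with LPS. The groups with and without LPS did not overlap in either kind of mice, though replicate 1 of control cells with LPS was close to the unstimulated level. Ms4a3 rose by 0.76 ± 0.14 on the log2 scale in succinate mice (95% interval 0.46 to 1.06, adjusted p = 0.000758) and by 0.39 ± 0.14 in control mice (0.09 to 0.69, adjusted p = 0.0497). The latter call held in 11 of 23 alternative settings.

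Mpo encodes myeloperoxidase, the haem enzyme of primary granules that makes hypochlorous acid, and lies on chromosome 11 at 87793581 to 87804413 (plus strand). It stood at 952, 1378 and 1547 CPM in unstimulated control cells and at 585, 909 and 1809 CPM in control cells with LPS. Cells of succinate mice stood at 888, 1401 and 1814 CPM without LPS and at 1183, 1319 and 1332 CPM with LPS. The groups overlapped throughout, and in 3 of the 4 groups the range between libraries was wider than the whole range of the group means (1101 to 1368 CPM). The LPS effect on Mpo was -0.23 ± 0.33 in control mice (95% interval -0.93 to 0.47, adjusted p = 0.654) and -0.10 ± 0.33 in succinate mice (-0.80 to 0.60, adjusted p = 0.857). Mpo overlaps the antisense gene Gm11505, and 9.46% of its 50-base stretches occur in other genes, so that its counts are less certain than those of the 8 genes with 0% shared.

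Counted over the 10 genes, LPS raised 5 in control mice (S100a8, S100a9, Ngp, Camp and Ms4a3) and lowered 0, against 15.3% of all tested genes called higher and 14.8% called lower (30.1% in all). In succinate mice LPS raised 7 (the same 5 with Prtn3 and Ctsg) and lowered 0, against 14.1% called higher and 16.2% lower (30.2% in all). Groups did not overlap, with all LPS libraries higher, for 5 of the 10 genes in control mice and 8 in succinate mice, and for 22.3% and 19.9% of all tested genes. The median LPS effect of the 10 genes was 0.52 in control and 0.80 in succinate mice on the log2 scale, beside -0.004 and -0.017 over all genes. By role, LPS raised both alarmins in each kind of mice, 2 of the 3 secondary granule genes in each, and 1 and 3 of the 5 primary granule genes with Ms4a3 in control and succinate mice. The control count rested on single libraries: it was 0 without replicate 2 or without replicate 3 of unstimulated control cells, 0 without replicate 2 of control cells with LPS, and 3 without replicate 2 of succinate cells with LPS or with scaling by library size alone. Over all tested genes, the calls in the same order were 3347 of 14798, 3349 of 14832, 3461 of 14807, 4025 of 14752 and 4516 of 14324. The succinate count was 7 without each of the 12 libraries in turn, with 3374 to 4387 of all tested genes called.

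**Figure D3:**
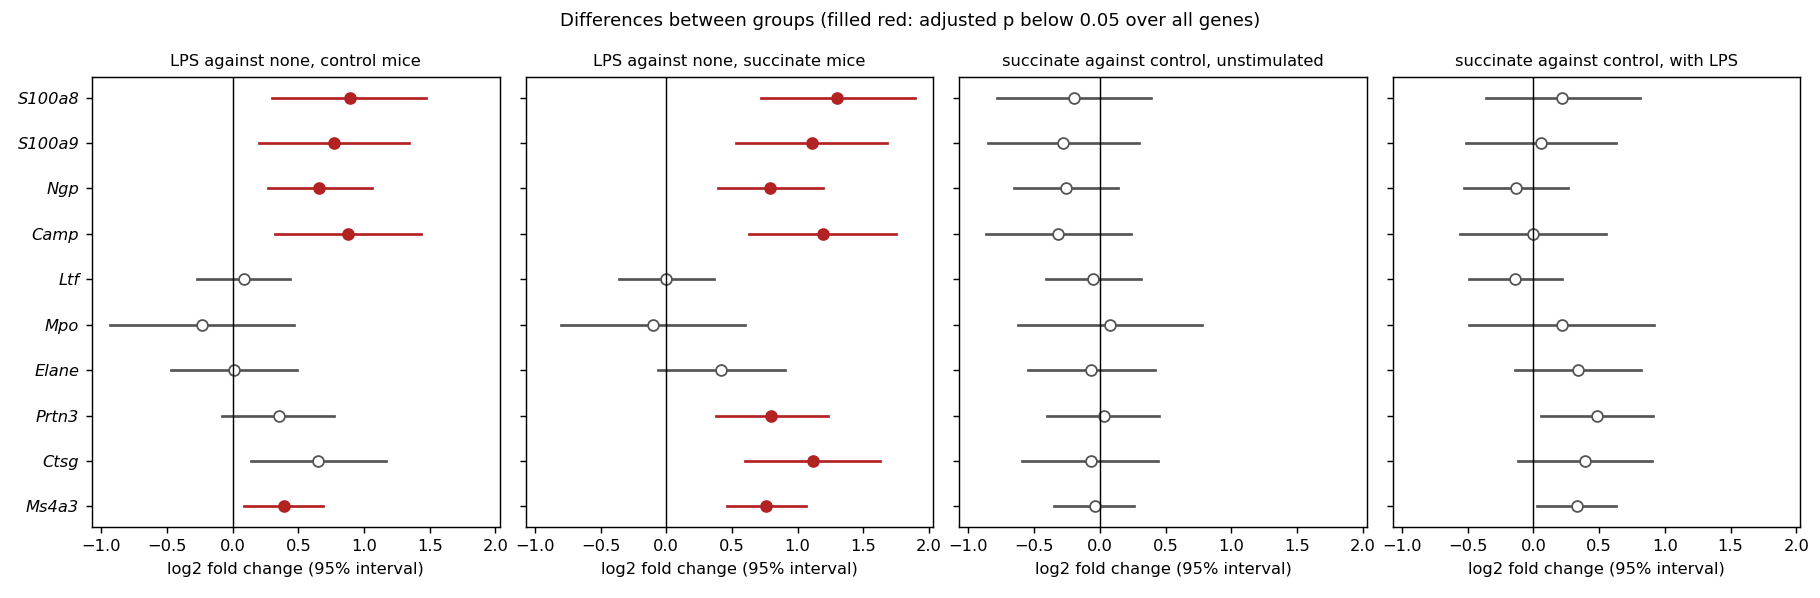
Log2 fold changes of the 10 genes with 95% intervals in the comparisons of LPS with no LPS and of succinate with control mice, filled red where edgeR's adjusted p over all tested genes was below 0.05. There are 5 filled points for LPS in control mice, 7 for LPS in succinate mice and none in either succinate comparison.

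The library classes moved with several of these genes. Among the 6 unstimulated libraries, the 4 of the high class were below both of the low class for S100a8 (902 to 1573 against 1957 to 2473 CPM), S100a9, Ngp, Camp and Ltf, and above both for Mpo (1378 to 1814 against 888 to 952 CPM) and Elane. Prtn3, Ctsg and Ms4a3 overlapped between the classes. The share of all tested genes that separated the classes was not counted, so this is not shown to be particular to the 10 genes. With LPS, replicate 3 of control cells, the 1 high library, was the lowest of 6 for S100a8, S100a9 and Camp and the highest for Mpo and Elane. With class as a covariate, the LPS effect was 0.74 for S100a8 (adjusted p = 0.0111), 0.61 for S100a9, 0.56 for Ngp, 0.71 for Camp and 0.42 for Ms4a3 (adjusted p = 0.036) in control mice, and the same 5 genes were called, with 4315 of 14324 genes called in all. In succinate mice 9 genes were then called, Mpo at 0.57 (adjusted p = 0.0477) and Elane at 0.79 (adjusted p = 0.00384) among them, with S100a8 at 0.93 and S100a9 at 0.70, and 3653 of all genes were called. Within the 7 low libraries, chosen as an alternative after the data were seen, 0 of the 10 genes were called in control mice (S100a8 0.45, adjusted p = 0.196, and Camp 0.46, adjusted p = 0.151), where 1 unstimulated library remained and its spread was taken from the other groups. Over all genes 2098 of 15302 were called in that fit. Within the 5 high libraries, where 1 LPS library remained, 4 of the 10 genes were called in control mice: S100a8 at 1.08 (adjusted p = 0.0353), S100a9 at 0.91 (adjusted p = 0.0432), Ngp at 0.78 (adjusted p = 0.008) and Camp at 1.01 (adjusted p = 0.00399), with 1827 of 14883 genes called. In succinate mice 7 were called within the low class, Elane among them and Ngp not, likewise against 1 unstimulated library, and 2220 of 15302 genes were called.

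**Figure D4:**
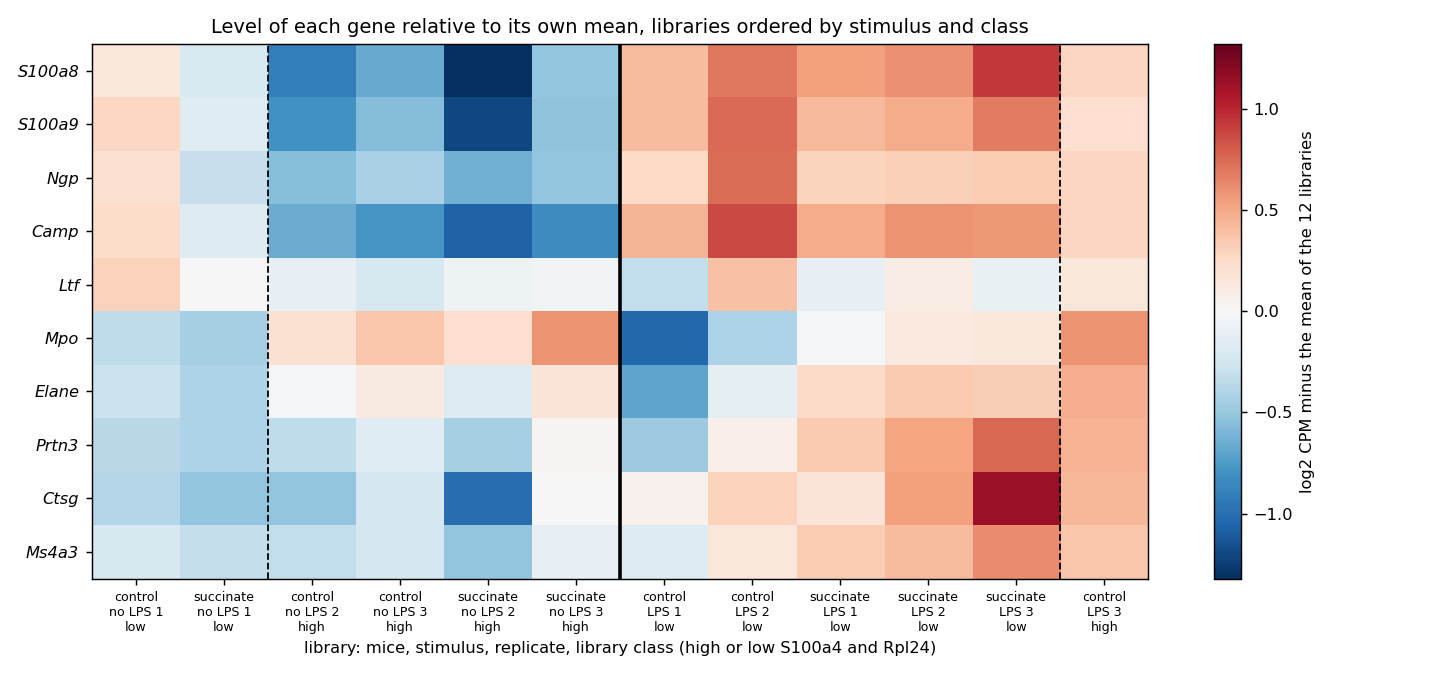
Log2 CPM of each of the 10 genes minus its mean over the 12 libraries (colour), with libraries ordered by stimulus (solid line) and then by library class (dashed lines). S100a8, S100a9, Ngp and Camp are lowest in the 4 unstimulated libraries of the high class, where Mpo is above its own mean.

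Succinate treatment of the mice changed none of the 10 genes in a way that passed the test, with or without LPS. In unstimulated cells the differences between succinate and control mice ran from -0.32 ± 0.26 for Camp (95% interval -0.87 to 0.24, adjusted p = 0.958) to 0.08 ± 0.33 for Mpo (-0.62 to 0.78, adjusted p = 0.99). By edgeR 0 of 10 were called, 0 had an unadjusted p below 0.05, and DESeq2 and limma-voom called 0 as well, against 0% of all genes called. Every pair of groups overlapped, as did the groups of all but 7.92% of the tested genes. The intervals leave room for differences of either sign: that of S100a8 was -0.78 to 0.39, and that of Ms4a3, the narrowest, -0.35 to 0.26.

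With LPS the differences between succinate and control mice ran from -0.14 ± 0.17 for Ltf to 0.48 ± 0.20 for Prtn3. The primary granule genes and Ms4a3 all had values above 0: Prtn3 0.48 (95% interval 0.06 to 0.91, unadjusted p = 0.0289 by edgeR's quasi-likelihood test, adjusted p = 0.357), Ctsg 0.39 ± 0.24 (-0.12 to 0.90), Elane 0.34 ± 0.22, Ms4a3 0.33 ± 0.14 (0.03 to 0.63, unadjusted p = 0.0342, adjusted p = 0.378) and Mpo 0.22 ± 0.33. S100a8 was at 0.22 ± 0.27, S100a9 at 0.06 ± 0.27, Camp at 0.00 ± 0.26 and Ngp at -0.13 ± 0.19. By edgeR 0 of the 10 genes were called and 2 had an unadjusted p below 0.05, DESeq2 and limma-voom called 0, and all pairs of groups overlapped. Of all tested genes 0.0628% were called, all of them lower, and 17.1% had groups that did not overlap. Prtn3 passed only when genes with low counts were not filtered out (0.49, adjusted p = 0.0173), a setting under which the count over all genes rose from 9 to 694. Without replicate 3 of control cells with LPS, the high-class library, Prtn3 was at 0.72 (adjusted p = 0.1), Mpo at 0.77 and S100a9 at -0.06. When each of the 12 libraries was left out in turn, Prtn3 ran from 0.26 to 0.72 and Elane from 0.09 to 0.69. Ctsg then ran from 0.09 to 0.59, Ms4a3 from 0.19 to 0.46 and Mpo from -0.10 to 0.77.

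The interaction, the LPS effect in succinate mice minus that in control mice, was called for 0 of the 10 genes and for 0% of all genes by edgeR. It ran from -0.09 ± 0.24 for Ltf to 0.46 ± 0.34 for Ctsg (95% interval -0.26 to 1.19), with 0 unadjusted p-values below 0.05, and DESeq2 and limma-voom called 0. Ms4a3 had the smallest p among the 10 genes (0.37 ± 0.20, unadjusted p = 0.0814, adjusted p = 1). The LPS calls of Prtn3 and Ctsg in succinate mice and their absence in control mice are therefore not shown to differ: their interaction values were 0.45 ± 0.28 and 0.46 ± 0.34. All comparisons of 1 fit share groups, so that the control LPS libraries enter the LPS effect in control mice, the succinate comparison with LPS and the interaction.

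Other granule cargo moved in both directions with LPS. Of 19 tested genes for other neutrophil granule cargo, 11 rose and 4 fell in control mice (median 0.64) and 11 rose and 3 fell in succinate mice (median 0.64). Haptoglobin (Hp), a secondary granule and plasma protein that binds haemoglobin, rose from 288 ± 15.3 to 1882 ± 189 CPM in control cells (log2 fold change 2.71 ± 0.13) and from 265 ± 28.9 to 1923 ± 306 CPM in cells of succinate mice. Cybb, the membrane subunit of the phagocyte oxidase, rose from 1013 ± 71.4 to 4282 ± 225 CPM and from 844 ± 37.8 to 3341 ± 581 CPM. Fpr2, a formyl peptide receptor, rose by 3.86 ± 0.25 and 3.56 ± 0.25, and Adam8, a membrane protease, fell by 1.56 ± 0.14 and 1.67 ± 0.14 in the same order (the largest of these adjusted p-values was 1.11e-06, for Adam8 in control mice, by edgeR). With class as a covariate the counts were 11 higher and 4 lower in both kinds of mice, and within the low class 5 and 3 in control and 8 and 3 in succinate mice.

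Genes that pack granules or hold their proteases in check mostly rose with LPS. Of 11 tested, 7 rose and 1 fell in control mice (median 1.18) and 8 rose and 0 fell in succinate mice (median 1.02). Slpi, the secreted inhibitor of elastase and cathepsin G, rose from 49.9 ± 11.8 to 1858 ± 895 CPM in control cells (5.22 ± 0.33, adjusted p = 1.25e-07) and from 59.5 ± 27.3 to 996 ± 75.5 CPM in cells of succinate mice (4.06 ± 0.33, adjusted p = 9.29e-07). Serpina3g, an intracellular protease inhibitor of the serpin family, rose by 3.83 ± 0.46 and 4.74 ± 0.45, and Cst7 (cystatin F), which inhibits the cathepsin that activates granule proteases, by 1.65 ± 0.18 and 1.84 ± 0.18. Srgn, the serglycin core protein that holds proteases in the granule, rose from 474 ± 26.6 to 1074 ± 44.2 CPM and from 461 ± 85.8 to 936 ± 82.3 CPM. The LPS effects on Elane, whose product Slpi inhibits, were 0.01 and 0.42 in the same order. Within the low class 5 of 12 tested genes rose in each kind of mice.

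**Figure D5:**
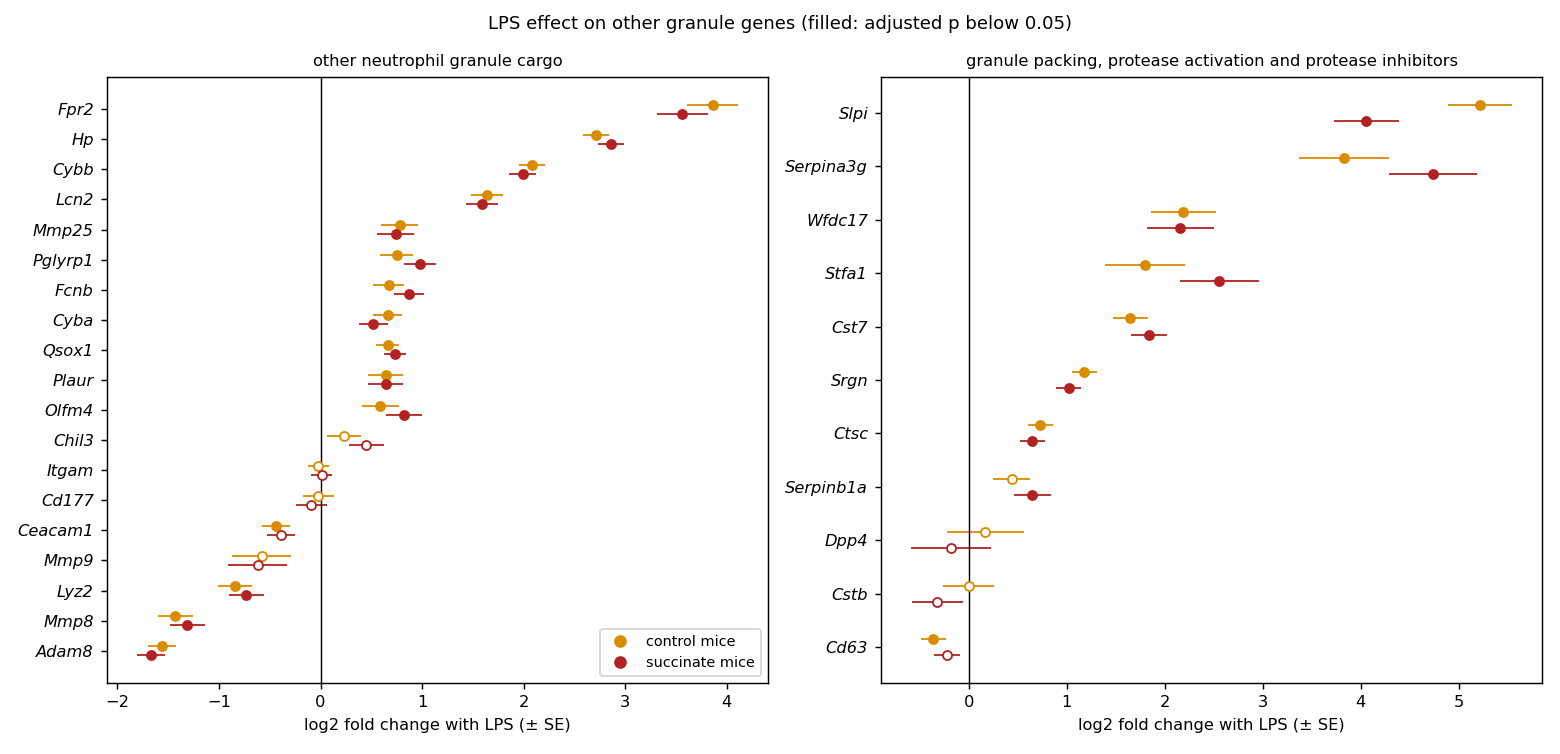
LPS effect (log2 fold change ± SE) on the tested genes for other granule cargo (left) and for granule packing, protease activation and protease inhibitors (right) in control and succinate mice, filled where edgeR's adjusted p was below 0.05. Slpi and Fpr2 lie farthest to the right of their panels in control mice (5.22 and 3.86), and Adam8 lies farthest to the left.

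Transcription factors of granule genes split with LPS, with 3 of 12 tested genes higher and 5 lower in each kind of mice. Klf4, a factor of monocyte differentiation, fell by 2.08 ± 0.14 on the log2 scale in control mice and by 2.64 ± 0.14 in succinate mice. Cux1, a repressor of late granule genes, fell by 0.81 ± 0.12 in each. Cebpd, a C/EBP family member induced in inflammation, rose from 82 ± 6.35 to 165 ± 13.4 CPM in control cells and from 83.6 ± 10.6 to 179 ± 8.99 CPM in cells of succinate mice. Myb, which acts on primary granule genes in progenitors, rose from 68.1 ± 2.52 to 126 ± 10.8 CPM (0.89 ± 0.16, adjusted p = 0.000448) and from 61.1 ± 13.6 to 133 ± 24.2 CPM (1.12 ± 0.16, adjusted p = 5.88e-05).

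Of 6 other S100 genes tested, 0 were called with LPS in control mice, and in succinate mice 3 rose and S100a4 fell. S100a1 rose by 0.76 ± 0.19 (adjusted p = 0.00723), S100a13 by 0.72 ± 0.24 and S100a11 by 0.29 ± 0.10 (adjusted p = 0.0458). S100a4, at 8.17 ± 7.26 and 1.45 ± 0.746 CPM without and with LPS, is 1 of the 5 genes that define the library classes, and with class as a covariate 1 of the 6 was called higher and 0 lower. S100a8 and S100a9 were thus the S100 genes called in both kinds of mice in the fit reported.

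Among receptors of calprotectin and of granule proteins, LPS raised 5 and lowered 3 of 12 tested in control mice and raised 4 and lowered 3 in succinate mice. Fpr1, the high-affinity formyl peptide receptor, rose from 1.72 ± 0.696 to 102 ± 18 CPM in control cells and from 2.69 ± 0.766 to 96.6 ± 14.1 CPM in cells of succinate mice. Cd36, a scavenger receptor, fell from 135 ± 28.8 to 14.1 ± 3.85 CPM and from 112 ± 33 to 8.83 ± 1.78 CPM. Lrp1, a receptor that takes up lactoferrin and protease-inhibitor complexes, fell from 2034 ± 324 to 583 ± 135 CPM and from 1721 ± 483 to 351 ± 101 CPM. Of 9 other alarmin genes tested, 2 rose in control and 3 in succinate mice: Il1a by 8.01 ± 0.75 and 7.22 ± 0.61, Nampt by 1.70 ± 0.15 and 1.26 ± 0.15, and the chromatin protein gene Hmgb2 in succinate mice (0.58 ± 0.18, adjusted p = 0.0226). In the comparisons of succinate with control mice and in the interaction, 0 genes of these 6 lists were called by edgeR. With library class as a covariate, where 190 of all genes were called between succinate and control mice with LPS, Slpi and Cd36 were lower in succinate mice, with log2 differences of -1.11 (adjusted p = 0.0289) and -0.85 (adjusted p = 0.0271).

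Markers of other cell types gave the following values beside the granule genes. Of 14 tested neutrophil maturation markers, LPS raised 6 and lowered 3 in control mice and raised 5 and lowered 3 in succinate mice, and their summed level was 1220 to 1238 CPM in unstimulated control cells, 1072 to 1241 in unstimulated succinate cells, 1076 to 1353 in control cells with LPS and 1112 to 1276 in succinate cells with LPS. These ranges overlapped. Of 11 early progenitor and cycling markers, 2 rose in control and 3 in succinate mice, and their sum was 1666 to 1772, 1489 to 1852, 1698 to 2160 and 2094 to 2204 CPM in the same order of groups. The succinate LPS group did not overlap the unstimulated groups in that sum, of which the proliferation gene Mki67 made up 1094 ± 72.9 CPM in that group. The succinate LPS group also had the highest means of 6 of the 10 genes (S100a8, S100a9, Elane, Prtn3, Ctsg and Ms4a3). Between succinate and control mice with LPS, 0 of the 10 were called, against 0.0628% of all tested genes. In the early progenitor and cycling list 0 genes were called lower with LPS in either kind of mice. Single genes of this list were named after their values were seen. Kit, a progenitor marker, stood at 55.9 ± 6.72 CPM without and 167 ± 27.9 CPM with LPS in control cells. In cells of succinate mice Kit stood at 52.6 ± 9.8 and 187 ± 13.6 CPM. The stem and progenitor markers Cd34 and Flt3 passed the LPS test in neither kind of mice (Cd34 -0.32 and -0.70, Flt3 -0.47 and -0.80). Their levels were low: in control cells without and with LPS, Cd34 was at 1.47 ± 0.306 and 1.18 ± 0.155 CPM. Flt3 was at 3 ± 0.852 and 2.17 ± 0.586 CPM in the same order. The sum of 10 Ly6C-high monocyte markers was 10236 to 10647, 6949 to 9952, 8571 to 9426 and 6015 to 8416 CPM. Among these 10, named after their values were seen, Ly6c2 rose from 593 ± 16.2 to 1233 ± 75.9 CPM with LPS in control cells, whereas the chemokine receptor gene Ccr2 fell from 87 ± 12.8 to 36.8 ± 4.84 CPM and F13a1 from 416 ± 47.8 to 122 ± 17.2 CPM. The median LPS effect of the 10 was -0.56 in control and -0.61 in succinate mice on the log2 scale. The part of these cell types in the levels of the granule genes was not tested. No neutrophil, progenitor or monocyte marker was at 0 in all libraries.

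By likeness of pattern over the 12 libraries, the 3 role groups had different neighbours among 7932 genes searched. The mean standardised log2 CPM of S100a8 and S100a9 was most like Wfdc21, a neutrophil-expressed gene of the whey acidic protein family (Pearson r = 0.984), Tmsb4x, the actin-sequestering thymosin (r = 0.984), and Gmfg (r = 0.983). The secondary granule genes were most like Mapk13 (r = 0.915), Cntln (r = 0.904) and Anxa1, an anti-inflammatory phospholipid-binding protein (r = 0.904). The primary granule genes with Ms4a3 were most like Rrm1, a subunit of ribonucleotide reductase (r = 0.946), Acbd6 (r = 0.942) and Lig1, the DNA ligase of replication (r = 0.942). These values describe 12 libraries that share the LPS groups and the library classes.

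All 10 genes matched the RefSeq promoter table, which covers 250 bases before to 50 bases after each start. The C/EBP motif occurred in 5 of the 10 promoters (S100a8, S100a9, Ngp, Ltf and Ms4a3) and in 40.7% of all 32851 promoters, and the PU.1 motif in 7 of 10 and in 28.3% of all. The MYB motif AACGG occurred in 2 of 10, Elane at position -50 and Prtn3 at position -55 from the start, and in 17.4% of all, and the RUNX motif TGTGGT in 3 of 10 and in 16.8%. Both strands were searched, and matches of 1 motif that overlap each other were kept. The 4 genes that rose with LPS in both kinds of mice and encode S100 or secondary granule proteins held the C/EBP letters in 3 cases, and so did Ltf, which passed the test in neither.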

How the data were processed

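RNA-seq of 12 libraries in 4 groups of 3 was used, grouped by the sample titles. Per the labels' protocols total RNA was extracted with Trizol, and per the submitters' processing notes reads were trimmed with Trim Galore and the build was mm10. The aligner, counter, annotation and strand setting were not given in the sources used here. The deposited values are raw read counts per gene, whole numbers that the authors did not normalise, from 15975882 to 18306747 per library. No pair of libraries within a group agreed within sampling noise, as a library deposited 2 times would (chi-square per degree of freedom 6.42 to 38.72), which does not show that they came from separate mice. For the unstimulated groups, deviations from the group means correlated at 0.12 to 0.26 in the 3 same-numbered pairs. In both of these groups replicate 1 was of the low and replicates 2 and 3 of the high class. Class was thus fixed by replicate number there, and its part in these correlations was not tested. Replicate 1 of unstimulated control cells and replicate 2 of control cells with LPS, both low, correlated at 0.28. In the other comparisons at least 1 same-numbered pair was not over 0.1.

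Counts were tested with edgeR 4.0.16 (R 4.3.3) by filterByExpr, TMM scaling and a quasi-likelihood fit with 1 mean per group over all 12 libraries (common biological coefficient of variation 0.167), with Benjamini-Hochberg adjustment over 14324 genes and a threshold of 0.05. Scripts were tested on simulated data. Alternatives were no filter, at least 1 CPM in 6 libraries, RLE scaling, library size alone, DESeq2 1.42.0, limma-voom (limma 3.58.1), only the groups compared, a replicate block, library class as a covariate, leaving out each library, and, chosen after seeing the data, each library class alone. Positions and exonic lengths came from GENCODE M21 (GRCm38, the assembly behind mm10), which held 54495 of 54532 gene identifiers, and promoters from RefSeq (GRCm38.p6).

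The 10 genes and the lists of related and marker genes were chosen with earlier results of these data known. All 10 genes are named. Of each related list the text names up to 4 genes with the smallest p in any comparison, and for each role group the 3 genes most like it (mean of at least 10 CPM). Other names were chosen after their values were seen.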

Additional observations from a re-analysis of the deposited data

How the results depend on the processing

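The titles number the replicates 1 to 3 in each group. For succinate against control without LPS, the comparison whose 3 same-numbered pairs were all over 0.1, the replicate block changed no call (0 of the 10 genes and 0 of all genes called). In the other comparisons at least 1 same-numbered pair was not over 0.1, and the labels used here do not say what a shared number marks. Over all groups, deviations from the group means correlated at -0.13 to 0.38 over 18 same-numbered pairs (7 over 0.1) and -0.33 to 0.29 over 36 others, and 23 of 36 best partners had the same number. With the replicate block the LPS count was 6 in control mice and 8 in succinate mice, Ctsg (0.65, adjusted p = 0.00889 by edgeR) and Elane (0.45, adjusted p = 0.0389) being added, Elane in control mice was at -0.04, and 4756 and 4864 of all genes were called. The lowest count of any of the 10 genes in a library was 1506, in Ctsg. What depth limits beyond that was not tested.

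Over the alternatives the count of genes raised by LPS in control mice ranged from 0 to 6 (5 in the fit reported). It was 3 with library size alone, 0 within the low class, and 0 to 6 when 1 library was left out. In succinate mice it was 7 to 9, and 7 without any 1 library. With LPS, 1 gene (Prtn3) differed between succinate and control mice without a filter, and 0 in the other settings. Between the groups with LPS, library size alone moved the all-gene median from -0.014 to 0.107. Of 1110 values of single genes, 1013 kept their direction and side of the threshold, 33 lost their call, 17 gained one and 47 changed sign. A value that rounded to 0.00 in either fit was counted as keeping its direction, as with Ltf for LPS in succinate mice. Values that changed sign were counted only as such, also where a call was gained, as with Mpo in succinate mice with class as a covariate.

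Values that changed sign were as follows, and the cause was not tested. For LPS in control mice Elane was at -0.07 with library size alone, -0.06 with limma-voom and -0.08 within the low class, Ltf was at -0.21 within the low class and Mpo at 0.31 within the high class. For LPS in succinate mice Mpo was at 0.57 with class as a covariate and 0.55 within the low class. Between unstimulated groups Ltf was at 0.10 within the high class, and Mpo at -0.10 and Prtn3 at -0.04 within the low class. Between LPS groups S100a9 was at -0.16 with class as a covariate and -0.05 within the low class. For the interaction Ngp was at -0.03 with class as a covariate and Ltf at 0.20 within the low class.

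Leaving out 1 library in turn gave these ranges. For LPS in control mice they were -0.06 to 0.29 for Ltf, -0.76 to 0.10 for Mpo and -0.31 to 0.28 for Elane. In succinate mice they were -0.33 to 0.16 for Mpo and -0.07 to 0.04 for Ltf. Between unstimulated groups they were -0.45 to 0.18 for S100a8, -0.54 to 0.12 for S100a9, -0.41 to 0.01 for Ngp, -0.63 to 0.08 for Camp, -0.15 to 0.12 for Ltf, -0.18 to 0.31 for Mpo, -0.23 to 0.06 for Elane, -0.14 to 0.11 for Prtn3, -0.37 to 0.14 for Ctsg and -0.16 to 0.05 for Ms4a3. Between LPS groups they were -0.06 to 0.21 for S100a9, -0.22 to 0.04 for Ngp, -0.12 to 0.18 for Camp, -0.32 to 0.03 for Ltf and -0.10 to 0.77 for Mpo. For the interaction they were -0.06 to 0.60 for S100a9, -0.14 to 0.30 for Ngp, -0.08 to 0.62 for Camp, -0.27 to 0.09 for Ltf and -0.18 to 0.70 for Mpo. Called genes over all tested genes ranged from 1827 to 4756 for LPS in control mice (4306 in the fit reported), 2220 to 4864 in succinate mice (4331), 0 to 694 for succinate with LPS (9), 0 to 72 for succinate without LPS (0) and 0 to 71 for the interaction (0).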

Other observations

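Further granule genes, named after their values were seen, moved in both directions with LPS. Lcn2, the siderophore-binding lipocalin of secondary granules, rose from 459 ± 113 to 1427 ± 146 CPM with LPS in control cells (log2 fold change 1.64 ± 0.16, adjusted p = 2.59e-06 by edgeR) and from 469 ± 44.1 to 1415 ± 212 CPM in cells of succinate mice (1.59 ± 0.16). Mmp8, the neutrophil collagenase of the same granules, fell from 147 ± 14.9 to 54.3 ± 7.91 CPM in control cells (adjusted p = 1.58e-05) and from 111 ± 22.7 to 44.6 ± 8.9 CPM in cells of succinate mice. Fcnb, a ficolin of primary granules and progenitors, rose from 307 ± 44.5 to 486 ± 92.3 CPM and from 292 ± 32.8 to 534 ± 28.7 CPM. Pglyrp1, a peptidoglycan-binding granule protein, rose by 0.75 ± 0.16 and 0.98 ± 0.16 on the log2 scale in control and succinate mice. Cd177, a surface protein of secondary granules, was at -0.02 ± 0.15 and -0.09 ± 0.15, and neither value passed the test.

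Transcription factors of the granulocyte and monocyte branches, also named after their values were seen, had LPS effects of both signs. Irf8, which directs progenitors to monocytes, fell by 1.26 ± 0.29 on the log2 scale in control mice (adjusted p = 0.0042 by edgeR) and by 1.61 ± 0.29 in succinate mice (adjusted p = 0.000741). Cebpa, the factor that opens the granulocyte-monocyte programme, fell by 0.47 ± 0.11 and 0.63 ± 0.11, and Spi1, the gene of PU.1, rose by 0.35 ± 0.10 and 0.34 ± 0.10. Cebpe, which is required for secondary granules, was at 0.22 ± 0.15 (adjusted p = 0.311) and 0.34 ± 0.15 (adjusted p = 0.11), and Gfi1 at 0.00 ± 0.17 and 0.12 ± 0.17. The receptor Csf3r, which binds the granulocyte growth factor G-CSF, was at 0.01 ± 0.13 and 0.00 ± 0.13.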
